A study of Rattus norvegicus with 16 samples.

Results

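The comparison described here set 6 arrays of brain tissue from rats that had undergone middle cerebral artery occlusion (MCAo) and received human umbilical mesenchymal stem cells (hUMSC) intravenously against 5 arrays of normal controls. Its members are 11 of the 16 arrays of the series, chosen by their labels alone. The hUMSC group carries the label MCAo treated with IV-hUMSC, with 1000000 cells given and brain sampled 72 hours after the occlusion. The control group is labelled as normal, with no occlusion, although the source label of every sample, controls included, also names 72 hours after MCAo. The controls were taken as not occluded from their group label. Another 5 arrays come from occluded rats given saline. All rats were 8 weeks old and all samples were brain tissue. No sham-operated group and no group given cells without occlusion is labelled, so the effects of the surgery, the occlusion and the infusion cannot be told apart in this comparison. The region or hemisphere taken, the sex, the time of infusion and the hour of collection are not given in the labels. The labels do not say that each array stands for a separate animal, so the p-values measure the spread between these samples. Whether RNA of the infused human cells contributed to any signal was not tested.

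Occlusion of the middle cerebral artery cuts the blood supply to much of the striatum and the overlying cortex. In the days that follow, neurons in the core die, microglia and blood-borne macrophages clear debris, astrocytes around the lesion become reactive, and cells in and around the lesion divide. Mesenchymal stem cells from umbilical cord tissue are studied in this model mainly for the factors they release.

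Levels are log2 signals relative to the 75th percentile of the array, so a difference of 1 is a 2-fold difference. A gene was called higher or lower when its adjusted p (limma, Benjamini-Hochberg over 20471 features, of which 12610 have a gene symbol) was under 0.05. In hUMSC, 5062 features were higher than in control (24.7% of those tested) and 7638 were lower (37.3%). At least 2-fold, 1727 were higher (8.44%) and 490 lower (2.39%). The 2 directions differed in size. Among the features called lower, 93.6% differed by less than 2-fold and the median change was -0.46, while the median of those called higher was 0.70. At 8-fold or more, 297 features were higher and 2 were lower, and at 16-fold or more 113 were higher and 0 were lower by this test (7638 were lower at any size). The median over all features was -0.13, against which each list below is read. In 9449 features (46.2%) the 6 hUMSC arrays did not overlap the 5 control arrays, 3938 of them higher and 5511 lower in hUMSC.

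The hUMSC arrays varied more than the controls. The median SD of a feature was 0.191 in hUMSC (n = 6) and 0.109 in control (n = 5), and it was larger in hUMSC for 79.5% of features. On the first principal component of the 11 arrays (71.9% of the variance), the controls lay between -67.8 and -61.1. The hUMSC arrays were at 73.1, 71.4, 64.1, 29.4, 47.4 and 35.9 for replicates 5 to 10, as the labels number them. Replicates 5, 6 and 7 were thus farthest from the controls and replicate 8 nearest. Replicate 8 had 1415 features at least 2-fold above the control mean and 272 at least 2-fold below it, against 2277 and 1644 in replicate 6. Controls 1, 2 and 3 and hUMSC replicates 5 and 6 were hybridised on slide 1, and controls 4 and 5 and hUMSC replicates 7 to 10 on slide 2. Within slide 1, 4759 features were higher and 6109 lower, and within slide 2, with 2 controls, 3032 were higher and 3148 lower. Of the 12700 features called on all arrays, 9973 were called in the same direction within slide 1 and 6028 within slide 2, and none was called in the opposite direction. Without replicates 5 and 6, 4524 were higher and 6640 lower.

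Serpina3n, a serpin made by reactive astrocytes, had the largest rise of all features, 8.23 ± 1.26, with hUMSC arrays from -0.57 to 4.49. Its controls lay between -7.87 and -4.30, and 1 of the 5 was well above background. Several of the other large rises were of genes that myeloid cells express. Lilrb4, an inhibitory receptor of myeloid cells, lay at -7.10, -8.38, -7.70, -8.43 and -7.81 in the controls and at -0.71, -0.98, -0.39, -1.66, -1.04 and -1.62 in hUMSC. The groups were far apart, and the change was 6.82 ± 0.44 (log2 change ± SE, adjusted p = 9.99e-07), the smallest adjusted p of any gene with a symbol. Fabp4, a fatty acid carrier of macrophages and fat cells, rose by 6.95 ± 0.73 (adjusted p = 6.01e-06), with hUMSC arrays from -2.66 in replicate 10 to -0.32 in replicate 5. For Lilrb4 and for Fabp4 only 1 of the 5 controls was well above background, so the sizes of both changes are less certain. Gpnmb, a glycoprotein of debris-laden phagocytes, stood at -1.77 to -1.51 in the controls and at 5.24, 4.77, 5.19, 4.38, 4.52 and 4.34 in hUMSC, a rise of 6.44 ± 0.48. Fcnb, a ficolin that starts the lectin pathway of complement, rose by 6.50 ± 0.47, and Igsf7 l1, an immunoglobulin superfamily gene, by 7.11 ± 0.63. Cd8a, a T cell co-receptor that rat macrophages can also carry, did not reach the well-above-background threshold on any of the 5 controls and was at least 146-fold higher in hUMSC. A transcript with no matched symbol, probe A_64_P059728 (TC597252 in the array's annotation), rose by 6.85 ± 0.42.

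Other genes, named for their small adjusted p, changed less and very evenly. That choice itself favours a small spread between arrays. Blnk, an adaptor of B cells and macrophages, lay between -3.32 and -3.09 in the controls and between -0.85 and -0.56 in hUMSC, a rise of 2.47 ± 0.18 (adjusted p = 1.95e-06). Tifab, an adaptor of innate immune signalling, rose by 2.16 ± 0.16, with all hUMSC arrays between -0.38 and -0.16. Their hUMSC arrays spanned less than 0.3, while the group means were more than 2 apart.

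The falls with the smallest adjusted p, named in the same way, were similarly even. Mtm1, a phosphoinositide phosphatase, lay at -2.48, -2.50, -2.51, -2.68 and -2.62 in the controls and at -3.19, -3.12, -3.29, -3.13, -3.24 and -3.16 in hUMSC, a fall of 0.63 ± 0.06 (adjusted p = 2.88e-06). Ppp2r2c, a regulatory subunit of protein phosphatase 2A in brain, fell by 0.99 ± 0.09 and Foxp1, a transcription factor of striatal and cortical neurons, by 0.75 ± 0.07. The largest falls were less even. Cort (cortistatin, a peptide of interneurons) fell by 3.23 ± 0.52, and the activity-regulated genes Egr4, Arc and Egr2 by 2.80 ± 0.48, 2.48 ± 0.43 and 2.48 ± 0.43. Hal, which breaks down histidine, fell by 2.52 ± 0.37, with 1 of 6 hUMSC arrays well above background, and C14h1orf146 by 2.30 ± 0.30. Enthd1 lay between -2.14 and -1.97 in the controls and at -5.05, -5.70, -4.22, -2.97, -4.25 and -3.57 in hUMSC, a fall of 2.23 ± 0.43 (adjusted p = 0.000435). Csap1 fell by 2.25 ± 0.75 and Ccdc42 by 2.18 ± 0.38. For Csap1, only 2 of the 6 hUMSC arrays were well above background, and its 3 lowest hUMSC arrays were at or below -8.39 while replicate 6 stood at -5.64. Csap1 did not pass within slide 1 (adjusted p = 0.218) and Enthd1 did not pass within slide 2 (adjusted p = 0.0505).

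A few genes rose by very different amounts from array to array. Sprr1a, a cornified-envelope protein that injured neurons also make, lay between -4.20 and -3.88 in the controls and at -2.46, -0.06, -0.58, -2.32, 1.11 and -2.08 in hUMSC, a rise of 3.02 ± 0.94 (adjusted p = 0.0114) that did not pass within either slide. Mmp7, a matrix protease, was below the threshold for background on all controls and reached -1.19 in replicate 7 against -6.12 in replicate 10, at least 8.64-fold higher in hUMSC on average. Trh, the precursor of thyrotropin-releasing hormone, rose by 2.05 ± 0.58, from 1.65 in replicate 6 down to -1.13 in replicate 8, with all controls at or below -1.53. The order of the hUMSC arrays differed between these genes, so no single array was highest throughout. Within slide 2, neither Mmp7 (adjusted p = 0.0820) nor Trh (adjusted p = 0.165) passed.

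Signalling genes of phagocytes moved as a block. All 25 tested genes of Fc receptor and ITAM signalling, the pathway by which antibody-coated and debris particles trigger uptake, were higher, with a median of 2.96 against -0.13 over all features. Fcgr3a, a receptor for antibodies, lay at -2.87 to -2.19 in the controls and at 0.77 to 1.63 in hUMSC, with replicates 8 to 10 below 1, a rise of 3.89 ± 0.33 (adjusted p = 2.27e-06). Vav1, an exchange factor downstream of these receptors, rose by 3.67 ± 0.32, the phosphatase Ptprc (CD45) by 3.37 ± 0.30, and the kinase Fgr by 3.30 ± 0.32. Of 20 Fc and leukocyte immunoglobulin-like receptors on the array, 16 were tested. Of these 14 were higher and 0 lower, with a median of 2.87 (1.67 to 3.17 over the processing settings tried). Siglec1, a sialic acid receptor of macrophages, rose by 5.79 ± 0.49. Of 25 C-type lectins on the array, which recognise sugars on microbes and dead cells, 18 were tested and 13 were higher. Their median was 1.88, and it ranged from 0.86 to 2.20 over the processing settings tried. Clec7a, the receptor for beta-glucan, was at least 28.7-fold higher and Clec12a rose by 4.84 ± 0.39. The other two called lectins fell, Clec11a, a secreted growth factor, by 1.11 ± 0.17 and Clec2l, which is found in brain, by 0.73 ± 0.14. All of the lists in this paragraph hold genes expressed by microglia as well as by incoming macrophages. The 18 macrophage markers tested were all higher too, with a mean level of -1.68 to -1.48 in the controls and 1.85 to 2.81 in hUMSC. In bulk tissue, more cells of a type and more RNA per cell cannot be told apart.

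Among myeloid transcription factors, 19 of 23 were higher and 1 was lower. Spi1 (PU.1), which sets the myeloid lineage, lay between -5.36 and -5.16 in the controls and at -1.67, -1.81, -1.76, -2.68, -2.34 and -2.51 in hUMSC, a rise of 3.11 ± 0.29 (adjusted p = 3.28e-06). Batf rose by 4.28 ± 0.43 and Bcl3, a partner of NF-kB, by 3.94 ± 0.40. Pparg, a lipid sensor, was lower by 0.34 ± 0.11 with overlapping groups. Of 11 Toll-like receptors on the array 8 were tested and 7 were higher, led by Tlr2 (2.73 ± 0.28). Of 10 genes of resting microglia 8 were higher, with a smaller median of 0.95. Csf1r, the survival receptor of microglia and macrophages, rose by 1.72 ± 0.17, while Cx3cr1 (-0.35, adjusted p = 0.0776) and Tmem119 (0.14, adjusted p = 0.488) did not pass, both genes chosen after their values were seen.

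Genes for taking in and breaking down material were mostly higher. Of 24 genes of lipid loading and foam cells, 19 were higher and 4 lower. Msr1, a scavenger receptor, was at least 55.0-fold higher, and Olr1, the receptor for oxidised LDL, rose by 4.16 ± 0.39. Fabp3, the fatty acid carrier of muscle and neurons, fell by 0.78 ± 0.10 and Vldlr by 0.63 ± 0.09. Of 34 genes of the phagosome and actin remodelling, 31 were higher, among them Capg, which caps actin filaments (4.64 ± 0.41), and the myosin Myo1f (3.84 ± 0.34). Of 33 lysosome genes 23 were higher and 7 lower. The cathepsins Ctsz and Ctsc rose by 3.36 ± 0.33 and 3.25 ± 0.37, and Ctsd, already at 4.46 to 4.57 in the controls, by 1.69 ± 0.19. The falls were of subunits of the vacuolar proton pump, including Atp6v1g2 (-0.62 ± 0.12) and Atp6v0a1 (-0.46 ± 0.09), which serve synaptic vesicles in neurons. Over the 11 cathepsins, 10 were higher and 0 lower.

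Inflammatory ligands and receptors were broadly higher. Of 35 cytokines, chemokines and their receptors, 32 were higher and 0 lower, with a median of 2.12. Cxcl1, which attracts neutrophils, lay between -8.81 and -6.97 in the controls, none of them well above background, and at -1.14, -1.75, -1.80, -3.64, -2.41 and -2.17 in hUMSC, at least 37.6-fold higher (adjusted p = 7.98e-06). In the interleukin family, 44 of 70 genes on the array were tested, of which 27 were higher and 10 lower. Their median was 0.55, and it ranged from 0.022 to 0.68 over the processing settings tried. Il1b rose by 3.75 ± 0.34 and its natural antagonist Il1rn by 2.90 ± 0.33, while Il1rapl2 and Il1rapl1, synaptic members of the family, fell by 0.96 ± 0.19 and 0.87 ± 0.16. Il1rl1, the receptor of interleukin 33, was at least 20.2-fold higher. Another tested Il1rl1 probe had a smaller log2 change, 2.10. Tnf rose by 1.74 ± 0.19 and its receptor Tnfrsf1b by 2.93 ± 0.36.

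Complement, antigen presentation and interferon genes rose together with these. Of 20 complement genes 18 were higher and 0 lower, with a median of 2.03. C5ar1, the receptor for the C5a fragment, lay at -5.67 to -4.92 in the controls and at -0.47, -0.51, -0.38, -1.48, -1.01 and -1.58 in hUMSC, a rise of 4.42 ± 0.44 (adjusted p = 4.60e-06). All 18 genes of antigen presentation were higher, with a median of 2.15. RT1-Da, a class II chain, lay between -3.63 and -2.30 in the controls and between 0.33 and 1.06 in hUMSC, a rise of 3.56 ± 0.35, and Cd74, the class II invariant chain, rose by 3.05 ± 0.33. Of 23 interferon-response genes 22 were higher. Ifitm1, which limits virus entry, rose by 4.32 ± 0.40 and the GTPase Gbp2 by 2.41 ± 0.27. In the interferon list replicate 7 stood highest, with a mean of 0.66 against 0.19 in replicate 6 and -0.76 in replicate 10 (controls -1.95 to -1.62). Within slide 2, 14 of its 23 genes were called.

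Genes of cell division rose in both of their phases. All 27 tested genes of mitosis and the spindle were higher, with a median of 3.41, and 24 of 28 genes of DNA replication were higher and 0 lower, with a median of 1.31. Cdk1, the kinase that drives entry into mitosis, lay at -2.30, -2.36, -2.50, -2.84 and -2.75 in the controls and at 2.41, 2.44, 1.92, 1.37, 2.02 and 1.61 in hUMSC, a rise of 4.51 ± 0.43 (adjusted p = 3.28e-06). Ccna2 (cyclin A2) rose by 4.73 ± 0.39, Cenpf, a kinetochore protein, by 4.41 ± 0.43, and Cenpa, the centromere histone, was at least 21.7-fold higher. Mcm3, a subunit of the replicative helicase, lay between -2.24 and -1.87 in the controls and between 0.75 and 1.98 in hUMSC, a rise of 3.51 ± 0.38, and Rrm2, which makes deoxynucleotides, rose by 4.32 ± 0.40. Of 19 histone genes 16 were higher, led by the linker histone H1f5 (2.75 ± 0.31).

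The promoters of some of these genes hold short motifs that cell cycle and inflammatory factors are known to bind. RefSeq windows of the GRCr8 build, from 250 bases before to 50 after a gene's start, were found for 10286 of the 12610 tested genes with a symbol, and both strands were searched. The cell cycle homology region, TTTGAA, was in 16 of 22 mitosis promoters (72.7%), in 1 of 22 replication promoters (4.55%) and in 12.2% of all tested promoters. The E2F site, TTTCCCGC or TTTGGCGC, was in 8 of 22 replication promoters (36.4%), in 0 of 22 mitosis promoters and in 2.62% of all. The NF-kB site was in 5 of 24 cytokine promoters (20.8%) and in 4.92% of all. It was not confined to inflammatory lists. It was in 3 of 22 replication promoters (13.6%), 3 of 26 synaptic vesicle promoters (11.5%) and 2 of 22 mitosis promoters (9.09%), and in 0 of 19 matrix promoters. Among genes called at least 2-fold higher it was in 8.34%, and among those at least 2-fold lower in 7.09%. The cAMP response element TGACGTCA and the serum response element were in 5 and 3 of 22 promoters of activity-regulated genes (22.7% and 13.6%), against 2.99% and 1.19% of all. The cAMP response element was also in 3 of 26 synaptic vesicle promoters (11.5%) and in 0 of 24 of CREB and calcium signalling. Among activity-regulated genes that hold it, Dusp1 was called lower and Ier2 higher. Windows of 5 genes from these lists are shown with the motif in capitals, each 300 bases long, 5′ to 3′ on the strand of the gene. In Cdk1 (chr20:19265043-19265342, plus strand) TTTGAA begins 72 and 16 bases before the start, and in Cenpf (chr13:103760837-103761136, minus strand) it begins 2 bases after it. In Mcm3 (chr9:30733697-30733996, minus strand) the E2F site begins 6 bases before the start and lies on the opposite strand. In Cxcl1 (chr14:17479272-17479571, minus strand) 2 overlapping matches to the NF-kB site begin 84 and 83 bases before it, and in Egr2 (chr20:21054392-21054691, minus strand) the serum response element begins 83 bases before it. These matches describe the letters only.
Cdk1: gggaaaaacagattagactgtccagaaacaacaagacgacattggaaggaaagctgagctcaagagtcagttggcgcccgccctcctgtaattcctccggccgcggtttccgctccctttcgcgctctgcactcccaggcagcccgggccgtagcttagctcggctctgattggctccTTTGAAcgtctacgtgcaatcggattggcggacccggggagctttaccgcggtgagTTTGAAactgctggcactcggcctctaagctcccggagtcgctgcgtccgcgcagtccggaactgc
Cenpf: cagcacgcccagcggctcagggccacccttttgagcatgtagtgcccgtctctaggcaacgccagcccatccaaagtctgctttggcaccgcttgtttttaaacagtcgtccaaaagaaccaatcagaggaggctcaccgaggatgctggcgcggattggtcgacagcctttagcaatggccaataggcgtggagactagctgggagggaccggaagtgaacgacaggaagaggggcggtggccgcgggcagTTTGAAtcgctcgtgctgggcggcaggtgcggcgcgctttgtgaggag
Mcm3: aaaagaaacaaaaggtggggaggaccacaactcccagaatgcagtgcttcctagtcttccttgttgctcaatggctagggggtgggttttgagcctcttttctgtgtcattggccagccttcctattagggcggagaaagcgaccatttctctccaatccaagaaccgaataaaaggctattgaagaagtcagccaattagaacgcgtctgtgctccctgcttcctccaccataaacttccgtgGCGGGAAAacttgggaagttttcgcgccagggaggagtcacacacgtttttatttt
Cxcl1: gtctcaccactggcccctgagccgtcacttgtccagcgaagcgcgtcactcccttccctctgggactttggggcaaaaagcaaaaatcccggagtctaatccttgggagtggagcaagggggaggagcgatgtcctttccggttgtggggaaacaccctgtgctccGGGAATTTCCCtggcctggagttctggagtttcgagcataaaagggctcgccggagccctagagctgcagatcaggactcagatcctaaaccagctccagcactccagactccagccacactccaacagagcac
Egr2: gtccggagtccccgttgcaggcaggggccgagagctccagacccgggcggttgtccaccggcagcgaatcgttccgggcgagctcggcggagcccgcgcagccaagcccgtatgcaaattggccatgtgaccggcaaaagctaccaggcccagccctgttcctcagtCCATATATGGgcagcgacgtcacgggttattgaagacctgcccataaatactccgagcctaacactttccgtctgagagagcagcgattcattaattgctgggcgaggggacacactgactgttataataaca

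Nearly all genes of the chosen matrix list and part of the vessel wall genes were higher. Of 30 genes of the extracellular matrix and its remodelling 29 were higher and 0 lower, with a median of 1.64. The collagens taken as a whole family were more mixed. Of 21 collagens, some of them also in the matrix list, 12 were higher (57.1%, against 24.7% of all features) and 6 lower (28.6%, against 37.3%). Their median was 0.56. Col11a2 was at -1.05 and Col2a1 at -0.68. Plau, the urokinase that activates plasmin, lay between -7.82 and -7.10 in the controls and at -1.03, -1.45, -1.83, -1.87, -1.91 and -1.99 in hUMSC, a rise of 5.70 ± 0.59 (adjusted p = 5.46e-06). Only 1 of its controls was well above background. Timp1, an inhibitor of metalloproteases, rose by 4.58 ± 0.56. Of 20 integrins 16 were higher. Itgal, the leukocyte chain that binds ICAM, was at least 18.4-fold higher and Itga5, a fibronectin receptor, rose by 3.58 ± 0.38. Of 14 endothelial genes 8 were higher (57.1%, against 24.7% of all features) and 0 lower, with a small median of 0.33. Tie1, an endothelial receptor kinase, lay between -3.16 and -2.70 in the controls and at -1.17, -1.27, -1.52, -2.24, -1.98 and -1.86 in hUMSC, a rise of 1.26 ± 0.20, and Pecam1 rose by 0.91 ± 0.16. Within slide 2, and also without replicates 5 and 6, 5 of these 14 were called. Among all 20471 features, 3032 and 4524 were called higher in these settings. Of 12 pericyte and smooth muscle genes 6 were higher (50%, against 24.7% of all features), such as Tagln, an actin-binding protein (2.81 ± 0.30). In the other direction 1 was lower (8.33%, against 37.3%), Vtn (-0.57 ± 0.09). Of 12 genes of fibroblasts and meninges 9 were higher, such as Postn (periostin, 2.92 ± 0.43), and 1 was lower, Slc22a6 (-0.66 ± 0.12). Of 24 genes of TGF-beta and BMP signalling 10 were higher (41.7%, against 24.7% of all features), 4 were lower (16.7%, against 37.3%) and 10 did not pass. The median was 0.19. Tgfb1 rose by 2.50 ± 0.24 and Tgfbi, a matrix protein, by 2.69 ± 0.38, while Fst (follistatin) fell by 0.65 ± 0.22 with overlapping groups and Inhba, an activin subunit, by 0.59 ± 0.13.

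Neuronal genes fell as a whole, by less than 2-fold in most cases. Of 15 general neuronal genes 14 were lower and 0 higher, with a median of -0.72. Snap25, a core protein of vesicle fusion, lay at 4.96, 5.02, 4.88, 5.00 and 4.93 in the controls and at 3.80, 3.70, 3.80, 4.29, 4.05 and 4.19 in hUMSC, a fall of 0.98 ± 0.16 (adjusted p = 0.000115). All 33 tested genes of the synaptic vesicle cycle were lower, with a median of -0.69, as were 28 of 30 genes of synaptic adhesion and axon guidance (-0.67). Rph3a, a vesicle protein that binds Rab3, fell by 1.46 ± 0.20, Unc13a, which primes vesicles, by 1.14 ± 0.16, and Lrrtm3, a postsynaptic adhesion protein, by 1.33 ± 0.20. Genes of striatal projection neurons had the lowest median of the 98 lists, at -1.56, with all 15 lower. Rgs9, which shortens dopamine receptor signalling, lay between 1.67 and 1.86 in the controls and at -1.18, -0.55, -0.44, 0.19, -0.10 and -0.45 in hUMSC, a fall of 2.15 ± 0.22 (adjusted p = 5.30e-06). Pde10a, the phosphodiesterase of these cells, fell by 1.97 ± 0.21 and Syndig1l, a synaptic protein of the striatum, by 1.54 ± 0.15. Fewer neurons in the tissue and less RNA per neuron cannot be told apart here either.

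Most receptor and channel genes were lower. Of 18 ionotropic glutamate receptors 17 were lower (median -0.71), and all 8 metabotropic ones were lower (-0.90). Grin2a, an NMDA receptor subunit, lay between 0.01 and 0.21 in the controls and at -1.18, -1.52, -1.04, -0.79, -1.12 and -0.80 in hUMSC, a fall of 1.22 ± 0.16 (adjusted p = 3.29e-05). Of 17 GABA receptor genes 14 were lower, among them the extrasynaptic subunit Gabrd (-1.45 ± 0.27), and 1 was higher, Gabrr2, at least 1.74-fold with overlapping groups. Of 44 voltage-gated potassium channel genes 35 were lower (median -0.73), of 23 calcium channel genes 20 (-0.71) and of 13 sodium channel genes 9 (-0.76). Among the potassium channel genes 2 were higher, one of them Kcne3, an accessory subunit, at least 2.57-fold. Of 24 inward rectifier and two-pore potassium channels 16 were lower and 5 higher, including Kcnk6 (1.33 ± 0.23) and Kcnk13, a channel of microglia (0.72 ± 0.09). Another tested Kcnk13 probe was at only 0.13. Of 20 dopamine, adrenergic, muscarinic and histamine receptors 16 were lower (80%, against 37.3% of all features) and 2 higher (10%, against 24.7%). Of 11 nicotinic receptors 6 were lower (54.5%) and 1 higher (9.09%). Kcnh4 fell by 1.90 ± 0.28, Scn4b, a sodium channel subunit of the striatum, by 1.56 ± 0.17, and Cacng3, which escorts AMPA receptors, by 1.40 ± 0.22. Drd1 and Drd2, the main dopamine receptors, fell by 1.78 ± 0.21 and 1.77 ± 0.24. The protocadherins, which mark individual neurons, had 22 of 31 lower and the synaptotagmins, the calcium sensors of release, 13 of 14. Within slide 2, 9 of the 18 ionotropic glutamate receptors, 6 of the 17 GABA receptor genes and 8 of the 31 protocadherins were called lower. Among all features 3148 of 20471 were called lower there.

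Calcium signalling and activity-regulated genes fell further than most of these in single genes. Of 34 genes of CREB and calcium signalling 31 were lower and 0 higher, with a median of -0.79. Camk2b, a subunit of the calcium kinase of synapses, lay at 2.81, 2.09, 2.09, 2.85 and 2.82 in the controls and between 0.92 and 1.36 in hUMSC, a fall of 1.42 ± 0.15 (adjusted p = 7.41e-06). Camkk2 fell by 1.82 ± 0.30 and Camk4 by 1.66 ± 0.25. Of 28 genes switched on by neuronal activity 19 were lower and 3 higher. Egr1 lay between 1.21 and 1.72 in the controls and at -0.67, -1.15, -1.63, -0.71, -1.01 and 0.64 in hUMSC, a fall of 2.15 ± 0.41 (adjusted p = 0.000397), and Bdnf, a neurotrophin of this group, fell by 1.65 ± 0.29. Replicate 10 was the hUMSC array nearest to the controls for Egr1. Fosl1, an AP-1 subunit, went the other way, from -6.42 to -5.63 in the controls to -2.82 to -1.28 in hUMSC (4.08 ± 0.47), and Ier2 rose by 0.61 ± 0.13. Within slide 2, 4 of the 28 were called lower, near the share of all features called lower there (3148 of 20471). The median there was -0.65 against -0.62 over all arrays, and Egr1 (-2.01, adjusted p = 0.0531) and Bdnf (adjusted p = 0.0562) did not pass.

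Neuropeptide and transcription factor genes of neurons were lower as well. Of 28 neuropeptide and granin genes 20 were lower and 2 higher. Crh, the corticotropin-releasing hormone, fell by 1.68 ± 0.27 and Penk, the enkephalin precursor of striatal neurons, by 1.38 ± 0.24. Of 26 neuronal transcription factors 22 were lower. Npas4, which depends on activity, fell by 2.07 ± 0.53 and Neurod6, of cortical excitatory neurons, by 0.94 ± 0.16. The zinc finger genes named Zfp, a family with no single tissue, had 91 of 160 lower and 12 higher, with a median of -0.27. Zfp365 fell by 1.26 ± 0.18, while Zfp36, which destabilises inflammatory mRNAs, was at least 3.32-fold higher.

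Several gene families had members called in both directions. Among all features 24.7% were higher and 37.3% lower, so calls in both directions do not by themselves set a family apart. Of 26 kinesins 12 were higher (46.2%) and 8 lower (30.8%). Kif2c and Kif11, motors of the spindle, were at least 19.8-fold higher and 3.91 ± 0.37 higher, and Kif5a, which carries axonal cargo, was 0.69 ± 0.10 lower. Of the adenylate cyclases 22.2% were higher and 55.6% lower. Among 9 adenylate cyclases, Adcy4 rose from between -4.89 and -4.49 to between -3.14 and -2.19 (1.98 ± 0.21) and Adcy7 by 1.89 ± 0.23, while Adcy1 and Adcy5, the cyclases of cortex and striatum, fell by 1.17 ± 0.21 and 1.17 ± 0.14. Among 18 regulators of G protein signalling, Rgs1, of leukocytes, rose by 3.54 ± 0.32, and Rgs4, of neurons, fell by 1.34 ± 0.20. Of 11 serotonin receptors 10 were lower and 1 was higher. Htr2b lay at -4.48, -5.07, -4.52, -4.14 and -4.17 in the controls and at -0.61, -1.23, -0.90, -1.40, -1.31 and -1.33 in hUMSC, a rise of 3.35 ± 0.45 (adjusted p = 3.05e-05), while Htr2a, of cortical neurons, fell by 1.16 ± 0.18. Connexins divided in the same way. Gja5 and Gja4, of arteries, rose by 2.87 ± 0.37 and 1.35 ± 0.23, and Gjd2, the connexin of electrical synapses, fell by 1.04 ± 0.22. Tubb6 rose by 4.14 ± 0.47 and Tuba4a fell by 0.71 ± 0.11. S100a4 and S100a11 rose by 4.53 ± 0.41 and 3.98 ± 0.43, and S100b, of astrocytes, fell by 0.60 ± 0.14. Another tested S100b probe was at -0.30. Of 9 caspases 8 were higher, led by Casp1, which matures interleukin 1 (2.37 ± 0.23), and Casp9, the initiator of the mitochondrial pathway, was lower by 0.52 ± 0.07.

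Genes of basic cell machinery moved little, and not all alike. Of 79 ribosomal protein genes 73 were higher and 1 lower, with a median of 0.46. Rpl22 lay between 3.88 and 3.95 in the controls and at 4.97, 4.93, 4.92, 4.64, 4.65 and 4.78 in hUMSC, a rise of 0.92 ± 0.12 (adjusted p = 2.22e-05). The mean of the list was 4.55 to 4.66 in the controls and 4.92 to 5.19 in hUMSC. Rpl3l, the muscle form of Rpl3, was the gene called lower (-0.58 ± 0.14). Some ribosomal protein genes have many near-identical pseudogene copies, and which transcripts a probe measures was not tested. Of 80 genes of the respiratory chain and ATP synthase 46 were lower (57.5%, against 37.3% of all features) and 2 higher (2.5%, against 24.7%). Their median was -0.18, close to that of all features. Ndufs3, of complex I, fell by 0.43 ± 0.06. Within slide 2, 2 of these 80 were called lower, a smaller share than among all features there (3148 of 20471). Of 44 spliceosome genes 21 were higher (47.7%, against 24.7% of all features) and 7 lower (15.9%, against 37.3%). Hnrnpf was up by 0.81 ± 0.10 and the neuronal Snrpn down by 0.65 ± 0.10. Of 37 proteasome genes 9 were higher (24.3%, against 24.7% of all features), led by the immunoproteasome subunits Psmb8 (2.91 ± 0.27) and Psmb9 (2.28 ± 0.23), and 5 were lower (13.5%, against 37.3%).

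Metabolic and stress genes gave mixed pictures. Of 30 genes of glycolysis and the hypoxia response 17 were lower (56.7%, against 37.3% of all features) and 6 higher (20%, against 24.7%). Vegfa, a hypoxia target and the main vessel growth factor, lay between 1.90 and 2.12 in the controls and at 0.48 and 0.44 in hUMSC replicates 5 and 6 and from 0.96 up in the other hUMSC arrays, all below the controls, a fall of 1.18 ± 0.18 (adjusted p = 7.79e-05), and Ankrd37, another such target, fell by 0.96 ± 0.10. Hk3, the hexokinase of blood cells, rose by 6.41 ± 0.61 and Hk2 by 2.01 ± 0.23. The neuronal glucose transporter Slc2a3 fell by 0.80 ± 0.17 and the fructose transporter of microglia, Slc2a5, rose by 1.90 ± 0.23. Of 26 Nrf2 target and iron genes 16 were higher. Hmox1, which breaks down haem, rose by 3.71 ± 0.49, and Hpx (hemopexin), which binds it, was at least 10.6-fold higher. Of 25 apoptosis and p53 genes 18 were higher and 2 lower, with Bcl2a1, a survival protein of leukocytes, up by 4.28 ± 0.44, Ripk3, the kinase of necroptosis, up by 3.99 ± 0.32, and Bcl2 down by 0.58 ± 0.10. For Bcl2a1 only 1 control was well above background. Among 17 heat shock genes 6 were higher (35.3%, against 24.7% of all features) and 7 lower (41.2%, against 37.3%), with Hspb1 up by 4.30 ± 0.62 and Dnajb5 down by 1.23 ± 0.14.

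Of 20 cholesterol synthesis genes 17 were lower and 1 was higher, with a median of -0.53. Hmgcs1 lay between 4.82 and 4.94 in the controls and at 3.94, 4.13, 4.05, 4.11, 4.06 and 4.33 in hUMSC, a fall of 0.79 ± 0.14 (adjusted p = 0.000227), and Srebf2, the transcription factor that controls the pathway, fell by 0.79 ± 0.13. Within slide 1, 9 of the 20 were called lower, against 6109 of all 20471 features. Of 15 genes of mature oligodendrocytes 9 were lower (60%, against 37.3% of all features), with a median of -0.36. Opalin fell by 0.68 ± 0.12, and Mbp, the main myelin protein, did not pass (-0.13, adjusted p = 0.194, with overlapping groups). Another tested Mbp probe was at -0.36. Within slides 1 and 2, 4 and 3 of the 15 were called lower, close to the shares of all features there (6109 and 3148 of 20471). Of 16 clock genes 14 were lower, with a median of -0.52, and 6 within slide 2 (3148 of all 20471 features were lower there). Per2 fell by 1.17 ± 0.22 and Nr1d2, a repressor of the clock, by 0.82 ± 0.12. Since the labels give no hour of collection, a difference in the time of day between groups cannot be told apart from one between conditions for these genes.

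Markers of other cells that brain tissue can hold were measured alongside. All 22 reactive astrocyte genes were higher, with a median of 2.60. Of 15 genes of resting astrocytes 5 were higher (33.3%, against 24.7% of all features) and 7 lower (46.7%, against 37.3%). The median of the resting list was -0.27, against -0.13 over all features. The glutamate transporter Slc1a2 fell by 0.89 ± 0.15 and glutamine synthetase, Glul, rose by 0.43 ± 0.07. Of 13 tested T and NK cell genes 8 were higher and 0 lower. Their mean level was low in both groups, at -5.63 to -5.22 in the controls and -4.55 to -3.88 in hUMSC. Cd8b rose by 2.53 ± 0.35 and Cd3g by 1.52 ± 0.25, whereas Cd3e (0.21, adjusted p = 0.443) and Lck (0.13, adjusted p = 0.378), named after their values were seen, did not pass. Of 11 neutrophil genes on the array 7 were tested and 5 were higher, with Trem1 at least 23.3-fold higher and S100a8 up by 3.55 ± 0.57 with overlapping groups. Control replicate 3 was the highest control for the neutrophil list (-5.07 against -6.23 to -6.00) and for the red blood cell list (2.66 against -0.12 to 0.54). Of 6 red blood cell genes 0 were higher and 0 lower in limma, with adjusted p between 0.126 and 0.388. The labels' protocol names a blood RNA kit with lysis of red cells and globin reduction, while the labelled tissue is brain. The part of these cells in the immune lists above was not tested.

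The saline arrays show how far the same genes stood from the other occluded group. This contrast shares the hUMSC arrays with the one above, so its values are given side by side and not as a second finding. In the same model, 987 features were higher (4.82%) and 1633 lower (7.98%) in hUMSC than in saline. These counts rest on saline replicates 1 and 5, which lay nearest to the controls. The mitosis list, for example, stood at -2.45, -0.95, -1.01, -1.12 and -3.07 in the saline arrays, at -1.43 to -0.40 in hUMSC and at -4.23 to -4.08 in control. Without those 2 arrays 5 features were higher and 18 lower, and within slide 2 the counts were 0 and 0 by limma (3191 with an unadjusted p under 0.05). Without saline replicate 1 alone the counts were 26 and 158, and without saline replicate 5 alone 63 and 315. Without hUMSC replicates 5 and 6 they were 16 and 133, and the pooled model also draws its spread from the controls, which varied less.

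Of the 500 genes that the naming rule selected, 92 were higher and 60 lower in hUMSC than in saline. The rule chose them mostly on their change from control with the same hUMSC arrays, so these counts cannot be read against the 4.82% and 7.98% of all features. Of the 8 with the smallest adjusted p in each direction, 6 of the 16 were still called without saline replicates 1 and 5, and the first 4 falls and 3 rises are given here. Ppp2r2c lay between -1.76 and -1.38 in the controls, at -1.45, -1.69, -1.83, -1.83 and -1.43 in saline and between -2.71 and -2.44 in hUMSC. The hUMSC arrays overlapped neither group, with a difference from saline of -0.92 (adjusted p = 0.000827, and 0.00795 without saline replicates 1 and 5), while saline differed from control by -0.08 (adjusted p = 0.577). Fam168a, a gene of little known function, showed the same order, at -0.51 to -0.28 in control, -0.32, -0.56, -0.69, -0.71 and -0.48 in saline and -1.24 to -1.09 in hUMSC (-0.63 from saline, adjusted p = 0.00116, and 0.00795 without saline replicates 1 and 5). These values are of its brightest probe, whose change from control was -0.77. Another tested Fam168a probe differed from control by only -0.29. Zbtb16, a zinc finger repressor, lay at -3.46 to -3.10 in control, at -2.84, -3.05, -3.01, -3.38 and -2.98 in saline and at -4.16 to -3.68 in hUMSC (-0.81 from saline, adjusted p = 0.00316), and did not pass without saline replicates 1 and 5 (adjusted p = 0.0532). Nr1d2 lay at -3.63 to -3.33 in control, -3.08, -3.31, -3.74, -3.89 and -3.35 in saline and -4.40 to -4.14 in hUMSC (-0.84 from saline, adjusted p = 0.00372, and 0.0485 without saline replicates 1 and 5). Ccl12, a monocyte chemokine, was at -7.73, -5.05, -4.73, -4.84 and -6.19 in saline and at -3.65 to -2.01 in hUMSC, a difference of 3.19 (adjusted p = 0.00372, and 0.00795 without saline replicates 1 and 5). Within slide 2, with 2 saline arrays, none of these 5 differences passed (adjusted p = 0.311 for each). Il1rn (1.70, adjusted p = 0.0138) and Il1b (1.70, adjusted p = 0.0156) were also called higher than in saline on all arrays, and did not pass without saline replicates 1 and 5 (adjusted p = 0.151 and 0.127).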

How the data were processed

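Brain RNA of 16 samples was measured on 1-colour Agilent arrays. The deposited scanner files give spot intensity as processed by Feature Extraction, whose version is 11.0.1.1 per the file headers and 100.0.1.1 per the submitters' processing notes. Groups were taken from the labels. The deposited intensity was converted to log2 and each array's 75th percentile over probes that are not controls was subtracted. Probes well above background on at least 5 of the 16 arrays were kept, the brightest probe stood for a gene, and symbols were matched to the RefSeq gene table of GRCr8. A gene could thus be tested through the 6 hUMSC arrays alone, which adds to the rises counted in lists with dim members. List members below this limit were not tested and are not in the counts. One model of the 3 group means over all 16 arrays was fitted in limma 3.58.1 (R 4.3.3), with 13 residual degrees of freedom and Benjamini-Hochberg adjustment over 20471 features, and it was tested on simulated data. A gene that no array of a group measured well above background is given as at least N-fold, against the higher of its own signal and the lowest signal well above background on each array. Genes measured well above background on only some arrays of a group are given without this limit, and their sizes are less certain. In the controls these include Lilrb4, Fabp4, Plau, Bcl2a1, Batf, Itga5 and Cenpf. Named genes were, in each direction, the 10 largest and 6 most significant changes, up to 4 members per list, with up to 2 in its other direction, the 6 most variable in hUMSC, the 2 largest without a symbol, and a few standard markers. The members and lists were chosen with earlier results of these data known. Alternatives covered background correction, scaling, the dim-probe filter, slide, array weights and leaving out arrays. No array had a saturated spot among those tested. The number of arrays limits the precision.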

Additional observations from a re-analysis of the deposited data

Results flagged for a closer look

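A single array stood apart from the rest of its group in 8 of the values examined, by the gap to its nearest neighbour as a share of the group's range (above Dixon's critical value). Chance gives about 1 such case in 20, and 41 genes and 47 lists were examined in each group. The 8 cases are thus about as many as chance would give. In the controls, Actb was 5.67 in replicate 2 against 5.33 to 5.41 in the others, and Gpnmb was -1.51 in replicate 1 against -1.77 to -1.72. In hUMSC, Mbp, the main myelin protein, was 7.64 in replicate 10 against 7.31 to 7.37, and Arr3, the arrestin of cone photoreceptors, was -5.57 in replicate 8 against -7.94 to -7.36. The other 4 were list levels of the controls, and 0 list levels stood apart in hUMSC. Control replicate 3 accounted for 3 of them. It stood at 2.66 for the red blood cell list (others -0.12 to 0.54), at -5.07 for the neutrophil list (others -6.23 to -6.00) and at 0.81 for the cholesterol synthesis list (others 0.90 to 0.93). Control replicate 4 was at -2.23 for the extracellular matrix list (others -2.11 to -2.08).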

How the results depend on the processing

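No paired analysis was possible because the control and hUMSC groups share only replicate number 5. Leaving out 1 array at a time gave 4801 to 5105 features higher and 7059 to 7837 lower in hUMSC than in control, 1649 to 1812 at least 2-fold higher and 413 to 639 at least 2-fold lower. The count at least 2-fold lower was 237 with normexp background correction, 1181 within slide 1 and 285 within slide 2. Within slide 2, 3032 features were higher and 3148 lower, with 2 control arrays. Of the 500 named genes, 131 were no longer called within slide 2 and 48 within slide 1, and Cnn1 turned from higher to -0.052 within slide 2 (adjusted p = 0.942 in limma). The cause was not tested. Several tested probes were available for 71 of the named genes, and in 2 of these a probe changed in the opposite direction. Scaling to the median moved the share of higher among all calls from 39.9% to 35.1%. The counts against saline (987 higher and 1633 lower) were less stable. They were 429 and 942 with no filter on dim probes, 2655 and 3739 with slide as a block, 327 and 712 within slide 1, 0 and 0 within slide 2 (3191 at an unadjusted p under 0.05 in limma), 20 and 103 with array weights, and 16 and 133 without hUMSC replicates 5 and 6. They were 5 and 18 with saline replicates 1 and 5 left out, which was chosen after seeing the data. Leaving out 1 array at a time, saline arrays also after seeing the data, gave 26 to 1793 higher and 158 to 2504 lower.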
